A study of Mus musculus with 8 samples.

Results

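A set of 10 genes of lipid efflux and of the liver X receptor (LXR) pathway was examined in tumor-associated macrophages (TAMs): Apoe, Apoc2, Abca1, Abcg1, Nr1h3, Nr1h2, Mylip, Lpcat3, Lpl and Pltp. They were taken by gene symbol from a table of normalized read counts, which holds 53247 genes, and all 10 symbols were found there. The TAMs came from LLC (Lewis lung carcinoma, a mouse cell line that grows in C57BL/6 hosts) implanted s.c., and were sorted by flow cytometry 14 days after implantation as cells positive for CD45, CD11b, MHC II and F4/80. One group was WT mice (4 samples), the other mice that lack miR-21, written miR-21-/- here (4 samples), all labelled C57/BL6 and 10 weeks old. Both groups received LLC cells. The null allele is constitutive, so every host cell of the tumor lacked miR-21, not the macrophages alone, and miR-21-/- replicate 1 carries 2 sample numbers in its title, which leaves unsaid whether it was pooled from 2 animals. Samples are described as biological replicates and no label ties a replicate to 1 animal, so p-values measure the spread between these samples.

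LXRs are nuclear receptors that are switched on by oxidized sterols, which build up when a cell is loaded with cholesterol. In macrophages they act as a pair with the retinoid X receptor (RXR), and their targets move cholesterol out of the cell (Abca1, Abcg1, Apoe), remodel lipoproteins and membrane phospholipids (Pltp, Lpcat3, Lpl) and cut uptake through the LDL receptor (Mylip). Macrophages are a rich source of apolipoprotein E and of lipoprotein lipase.

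miR-21 pairs with mRNAs mainly through its seed, bases 2 to 8 of the mature strand, and the mouse sequence (RefSeq, GRCm38.p6, chr11:86584120-86584141, minus strand) is shown with the seed in capitals, because the members were searched for its sites:
mmu-miR-21a-5p: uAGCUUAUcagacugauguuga
None of the longest annotated 3′ UTRs of the 10 genes (GENCODE vM21) held the 8-base site ATAAGCTA or either 7-base site, ATAAGCT or TAAGCTA. The 8-base site is in 2.31% and the 7-base sites are in 8.15% and 7.87% of 11480 tested genes with an annotated 3′ UTR. These UTRs were between 182 bases (Apoc2) and 3703 bases (Abcg1) long. The shortest match, the 6 bases TAAGCT, is in 27.5% of the genes and was found among the members once, in Lpl at position 733 of its 2428-base UTR, shown with the match in capitals:
Lpl: tggagcttgTAAGCTgggcaatg
These counts describe the letters in 1 annotated UTR per gene and not binding.

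LXR with RXR binds direct repeats of a hexamer set 4 bases apart (DR4). RefSeq promoter windows of 250 bases before to 50 bases after a start were given for 8 of the 10 genes (11 windows). They were searched on both strands for the consensus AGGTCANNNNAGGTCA, which was in none of the 11 and is in 0.0152% of 32851 windows of the genome, and for a relaxed form, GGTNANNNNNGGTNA, which is in 0.718% of them. The relaxed form matched 1 member window, that of Abca1, and the 250 bases before that start (GRCm38.p6, chr4:53159896-53160145, minus strand) are shown with the match in capitals:
Abca1: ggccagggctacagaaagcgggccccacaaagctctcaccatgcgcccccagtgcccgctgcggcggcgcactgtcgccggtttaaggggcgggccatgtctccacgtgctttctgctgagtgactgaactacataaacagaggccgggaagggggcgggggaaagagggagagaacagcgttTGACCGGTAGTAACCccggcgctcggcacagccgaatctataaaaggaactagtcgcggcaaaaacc
The match lies 67 to 53 bases before the start and reads GGTTACTACCGGTCA on the opposite strand. The same window holds the E-box CACGTG 147 to 142 bases before the start, which is in 7.15% of the windows, and TATAAA 29 to 24 bases before it (13.6%), and these matches do not overlap each other. The single hexamer AGGTCA, of which the consensus is made, was found in the window of Apoc2 only, while 16.3% of all windows hold it.

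The values are CPM (counts per 1e+06 reads) as the authors normalized them. A library held 20.2 to 33.4 times 1e+06 reads, judged by the steps between low values, so that 1 read was worth 0.0300 to 0.0495 CPM. Every member passed the filter on low values (a mean of 1 per 1e+06). Each had at least 157 reads in every library. Mir21a itself was at the lowest listed value, 0.0001 CPM, in all 8 samples, so it does not check the genotype labels. Vmp1, the gene that hosts Mir21a, had means (SD, n = 4 each) of 124 ± 9.08 CPM in WT against 397 ± 23.4 CPM in the null group. The defining macrophage markers were present in both groups: the summed level of 10 of them was 14317 to 15607 CPM in the WT group and 12667 to 14569 CPM in miR-21-/- samples, and none passed both limits of the test. Across all genes, WT replicate 4 stood slightly apart from the other WT samples (mean correlation with them across genes 0.98936, against 0.99112 to 0.99316 for the other 7 samples with their own genotype).

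The 2 genotypes were compared on log2(CPM + 1) with limma over 13850 genes, and p-values were adjusted over all of them (Benjamini-Hochberg). Calls needed a fold change over 1.5 with an adjusted p at or under 0.005, and none of the 10 genes was called, while 7.12% of all tested genes were (2.89% higher and 4.23% lower). At an adjusted p at or under 0.05 with no limit on the fold change, 4 of the 10 genes passed: Abca1 and Abcg1 were higher and Apoe and Pltp were lower in miR-21-/- TAMs. The same limit was passed by 36.0% of all tested genes (9.49% higher and 26.5% lower), so that 4 of 10 is close to the share of the whole table. At an unadjusted p under 0.05 there were 6 of the 10 (those 4, Apoc2 and Lpl), against 46.4% of all genes. The values of the 2 genotypes did not overlap for 1 member, Abca1, and for 35.1% of all tested genes (9.44% higher, as Abca1 was).

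Median log2 fold changes (miR-21-/- over WT throughout) were -0.03 over the 10 members and -0.10 over all tested genes. The median of all genes moved to -0.003 after rescaling by the median of ratios and to -0.008 after quantile normalization, so fold changes near -0.10 have no sign that is free of the scaling.

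**Figure D1:**
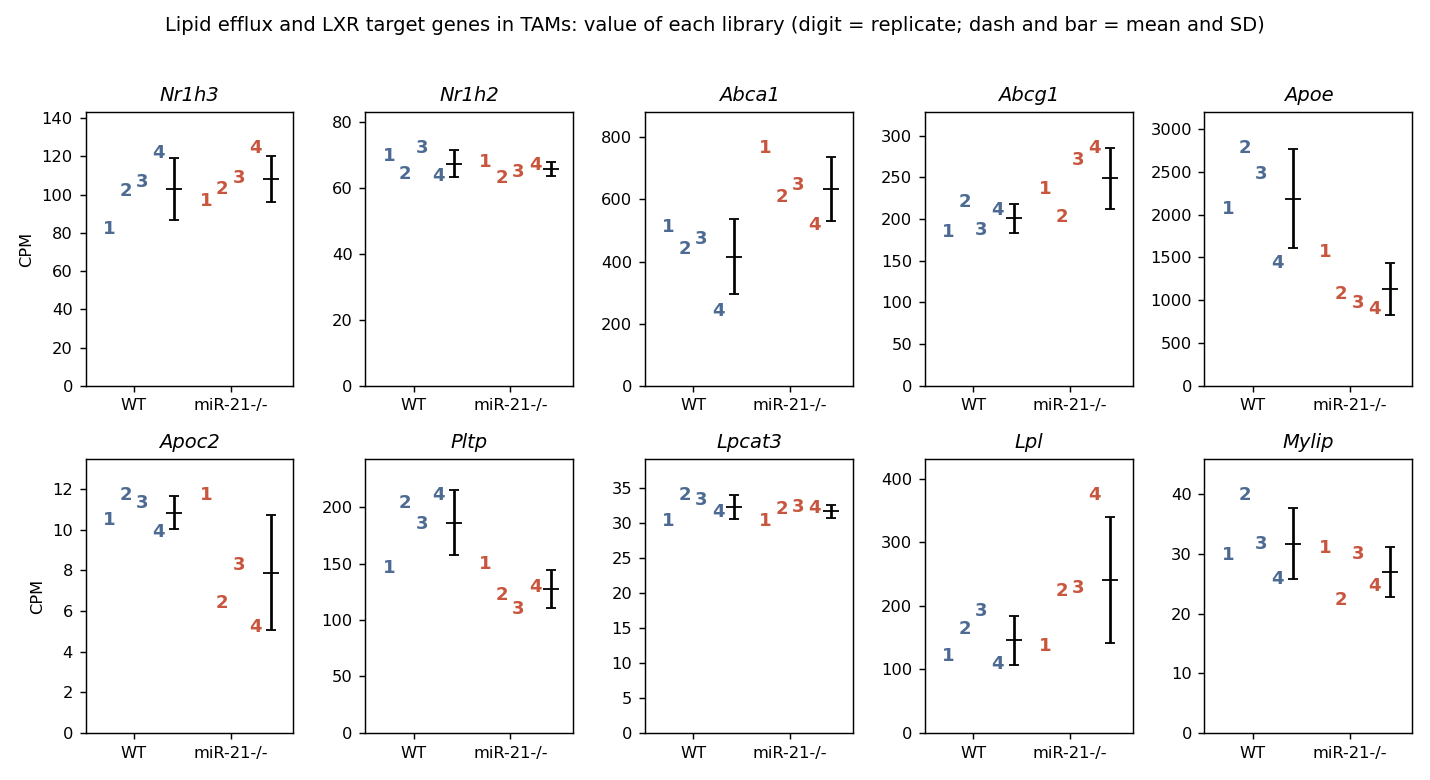
CPM (vertical axes, each from 0) of the 10 genes in each library of WT (blue) and miR-21-/- (red) TAMs, with the digit giving the replicate number and the dash and bar the mean and SD of 4 libraries. Abca1 is the gene whose groups do not overlap, Apoe and Pltp are lower in miR-21-/- TAMs with 1 library crossing, and Nr1h2 and Lpcat3 are level.

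Neither LXR gene passed the test. Nr1h3 (chr2:91184061-91202834, minus strand), which encodes LXRα, the form that marks macrophages, liver and fat, was at 82.0, 102, 107 and 122 CPM in WT replicates 1 to 4. In miR-21-/- replicates 1 to 4 it was at 96.8, 103, 109 and 124 CPM. The ranges overlap from 96.8 CPM upward, and WT replicate 1 was the lowest of the 8. Means were 103 ± 16.4 and 108 ± 11.9 CPM (SD, n = 4 each), and the log2 fold change was 0.08 (standard error 0.115, 95% interval -0.18 to 0.34, adjusted p = 0.623 from limma).

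Nr1h2 (chr7:44549616-44553951, minus strand), which encodes the ubiquitous LXRβ, was at 69.5, 64.2, 72.0 and 63.4 CPM in WT and at 67.7, 63.0, 64.7 and 67.0 CPM in miR-21-/- samples. All miR-21-/- values but the lowest lie inside the WT range. Here the log2 fold change was -0.03 (95% interval -0.16 to 0.09, adjusted p = 0.661), and its sign turned under both rescalings. The ratio of Nr1h3 to Nr1h2 CPM, which no factor applied to a library changes, was 1.18 to 1.92 in WT and 1.43 to 1.86 in miR-21-/- samples, so that it overlapped too.

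Abca1 and Abcg1, the transporters, were higher in miR-21-/- TAMs only at an adjusted p at or under 0.05. That limit was added after the data were seen. ABCA1 loads cholesterol and phospholipid onto lipid-poor apolipoproteins. Abca1 (chr4:53030787-53159895, minus strand) was at 512, 439, 472 and 240 CPM in WT samples and at 766, 608, 647 and 516 CPM in miR-21-/- samples. Every miR-21-/- value exceeded every WT value, but the closest pair, WT replicate 1 and miR-21-/- replicate 4, was only 512 against 516 CPM, and WT replicate 4 lay far under the other 3. Means were 416 ± 121 and 635 ± 103 CPM (SD, n = 4 each). With a log2 fold change of 0.65 (standard error 0.217, 95% interval 0.17 to 1.13), the adjusted p was 0.0396 from limma.

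ABCG1 passes cholesterol to mature HDL. Abcg1 (chr17:31057698-31115777, plus strand) was at 185, 220, 187 and 211 CPM in WT and at 236, 203, 271 and 285 CPM in miR-21-/- samples. Of the 4 miR-21-/- values, 3 exceeded all WT values and the other, replicate 2, lay among them. The means of 201 ± 17.6 and 249 ± 36.8 CPM (SD, n = 4 each) gave a log2 fold change of 0.30 (standard error 0.106, 95% interval 0.06 to 0.54, adjusted p = 0.0493 from limma), just inside the limit of 0.05.

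How firm these differences are varies between the transporters, neither of which was called. Over 17 alternative settings, of which 8 leave out a library, the log2 fold change of Abca1 stayed above 0 (0.41 to 0.77) and its adjusted p was at or under 0.05 in 10. Without the low WT replicate 4 it was 0.41, with an adjusted p of 0.0269. The adjusted p was above 0.05 without WT replicate 2 and without miR-21-/- replicates 1, 2 or 3 (up to 0.0975 with a library left out), with no filter, without the trend and after quantile normalization (0.128 at most). Abca1 passed both limits in 1 setting, with the replicate number as a block (adjusted p of 0.00454 from limma), though samples were not taken as paired. Abcg1 was also above 0 in all 17 (0.23 to 0.41) but at or under 0.05 in 5, and of the 8 fits with a library left out only the one without miR-21-/- replicate 2 gave an adjusted p at or under 0.05 (0.0116, the others up to 0.123).

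**Figure D2:**
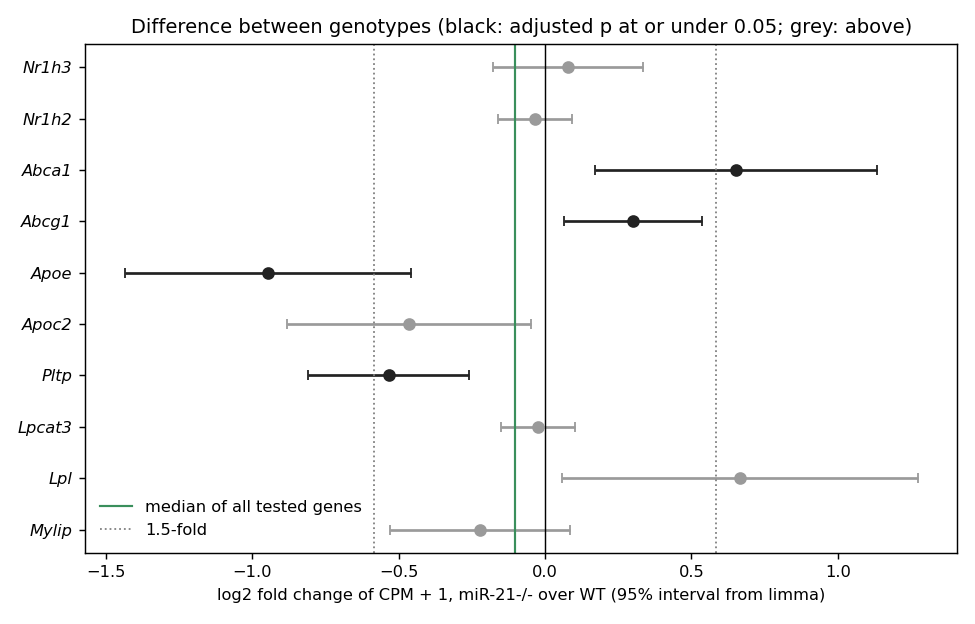
Log2 fold change of CPM + 1, miR-21-/- over WT (horizontal axis), of each of the 10 genes with its 95% interval from limma over 4 and 4 libraries, in black where the adjusted p is at or under 0.05. Abca1 and Abcg1 lie right of 0 and Apoe and Pltp left of it, the green line marks the median of all tested genes at -0.10, and the dotted lines mark a fold of 1.5.

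Of the 2 apolipoproteins, Apoe was lower at an adjusted p at or under 0.05 and Apoc2 did not reach that limit. Apolipoprotein E is a ligand of lipoprotein receptors and an acceptor of the cholesterol that ABCA1 and ABCG1 release. Apoe (chr7:19696109-19699188, minus strand) was at 2061, 2779, 2475 and 1434 CPM in WT and at 1569, 1078, 968 and 898 CPM in miR-21-/- samples. All WT values exceeded all miR-21-/- values but for 1 crossing, WT replicate 4 below miR-21-/- replicate 1. Means were 2187 ± 582 and 1128 ± 303 CPM (SD, n = 4 each). Its log2 fold change of -0.95 (standard error 0.22, 95% interval -1.44 to -0.46) was the lowest of the 10 genes, and its adjusted p was 0.00844 from limma, above the limit of 0.005.

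Whether Apoe is called depends on the crossing libraries and also on the processing. It passed both limits without WT replicate 4 and without miR-21-/- replicate 1, and with all 8 libraries it passed them with sample weights and after quantile normalization. Its adjusted p was at or under 0.05 in all 17 alternative settings (0.00161 to 0.0412), and the log2 fold change ranged from -1.17 to -0.82. Since the sorted samples are bulk RNA, fewer cells that express Apoe and less Apoe RNA per cell cannot be told apart, here or for any gene below.

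Apolipoprotein C2 is the cofactor that lipoprotein lipase needs. Apoc2 (chr7:19671579-19677941, minus strand, close to Apoe on the chromosome) was at 10.5, 11.7, 11.3 and 9.88 CPM in WT and at 11.7, 6.41, 8.25 and 5.20 CPM in miR-21-/- samples, or 157 to 338 reads. Again miR-21-/- replicate 1 lay at the WT level, while the other 3 lay below all WT values. Means were 10.8 ± 0.823 and 7.89 ± 2.84 CPM, and the log2 fold change of -0.46 (95% interval -0.88 to -0.05) had an adjusted p of 0.0779 from limma. Without miR-21-/- replicate 1 it was -0.65 with an adjusted p of 0.00695, and without miR-21-/- replicate 4 it was -0.31 with an adjusted p of 0.179. In the 7 fits that left out a library other than miR-21-/- replicate 1, the adjusted p was 0.0868 to 0.179. With every library kept, it was 0.0280 with sample weights (log2 fold change -0.56). A predicted gene, Gm44805, covers 6358 bases of the same strand at this place and had 0.117 to 1.28 CPM.

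Apoe and Abca1 thus differed in opposite directions in the same libraries. The ratio of Apoe to Abca1 CPM, which multiplying a library by a factor leaves as it is, was 4.02, 6.33, 5.25 and 5.98 in WT and 2.05, 1.77, 1.496 and 1.74 in miR-21-/- samples. Its ranges are apart by a wide margin, also for WT replicate 4 and miR-21-/- replicate 1, the libraries that cross in Apoe. This ratio was chosen after the values were seen, and no test was made of it. Summed over the 10 genes, the level was 3247, 4057, 3765 and 2456 CPM in WT and 3095, 2462, 2469 and 2457 CPM in miR-21-/- samples, with Apoe holding 58.4% to 68.5% of it in WT and 36.6% to 50.7% in miR-21-/- samples.

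**Figure D3:**
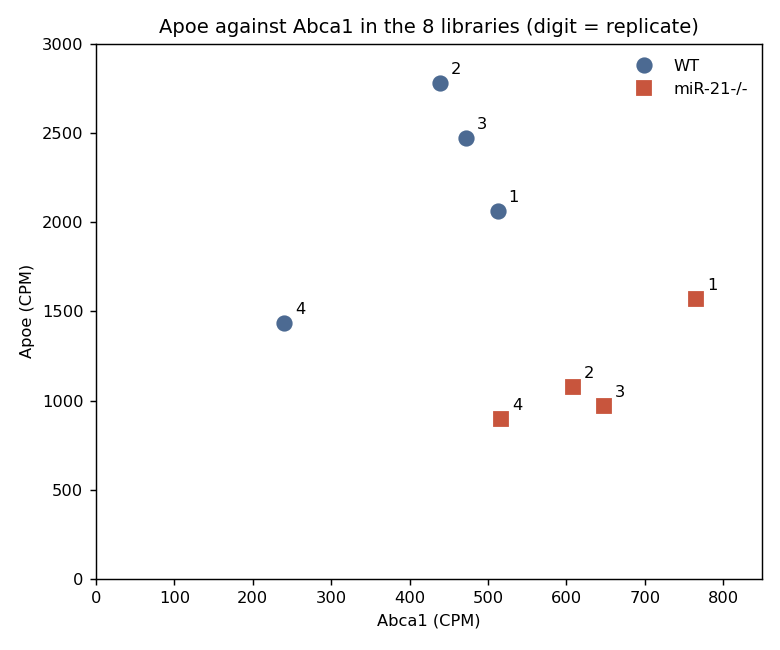
Apoe (vertical axis, CPM) against Abca1 (horizontal axis, CPM) in the 4 WT (circles) and 4 miR-21-/- (squares) libraries, with the replicate number beside each point. The 4 miR-21-/- libraries lie to the right of all WT libraries, at 1.496 to 2.05 Apoe CPM per Abca1 CPM against 4.02 to 6.33, while on the Apoe axis miR-21-/- replicate 1 lies above WT replicate 4.

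PLTP and LPCAT3 act on phospholipids. Phospholipid transfer protein is secreted and moves phospholipid between lipoproteins. Pltp (chr2:164839518-164857711, minus strand) was at 146, 204, 185 and 211 CPM in WT and at 150, 122, 110 and 129 CPM in miR-21-/- samples. The groups touch only in their replicates 1 (146 CPM in WT, 150 CPM in miR-21-/-), and apart from these every WT value exceeded every miR-21-/- value. Means of 186 ± 29.1 and 128 ± 16.8 CPM (SD, n = 4 each) gave a log2 fold change of -0.53 (standard error 0.123, 95% interval -0.81 to -0.26, adjusted p = 0.00801 from limma), which is under 1.5-fold. The adjusted p stayed at or under 0.05 in all 17 alternative settings (0.00184 to 0.0360), and both limits were passed in 1 of them, without WT replicate 1. Ctsa, which encodes the lysosomal protective protein cathepsin A, lies on the other strand and shares 1515 bases with Pltp. It was at 662 to 781 CPM in the WT group and 521 to 583 CPM in miR-21-/- samples (log2 fold change -0.41), and since the strand of counting is not given in the sources used here, its part in the Pltp values was not tested.

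LPCAT3 puts polyunsaturated fatty acids into membrane phospholipids. Lpcat3 (chr6:124663027-124704418, plus strand) was the most even of the 10 genes, at 30.3, 34.0, 33.3 and 31.5 CPM in WT and at 30.3, 32.0, 32.3 and 32.2 CPM in miR-21-/- samples. The miR-21-/- values lie inside the WT range. Means were 32.3 ± 1.67 and 31.7 ± 0.927 CPM, and the log2 fold change of -0.02 (95% interval -0.15 to 0.10, adjusted p = 0.761 from limma) turned its sign under both rescalings. Emg1 on the other strand shares 334 bases with it and was at 36.2 to 47.4 CPM.

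Lipoprotein lipase frees fatty acids from triglyceride-rich lipoproteins. Lpl (chr8:68880491-68907448, plus strand) was at 121, 163, 191 and 108 CPM in WT and at 136, 224, 229 and 375 CPM in miR-21-/- samples. The miR-21-/- samples exceeded all WT samples, replicate 4 by far, except for replicate 1, which lay among them. Means were 146 ± 38.3 and 241 ± 98.8 CPM (SD, n = 4 each), the widest relative spread of the 10 genes in miR-21-/- TAMs. Although the log2 fold change of 0.67 (standard error 0.274, 95% interval 0.06 to 1.27) was close to that of Abca1, the adjusted p was 0.0821 from limma. Without miR-21-/- replicate 4 the log2 fold change was 0.42, and without replicate 1 of that genotype it was 0.91, the only 1 of 8 fits with a library left out in which the adjusted p was at or under 0.05 (0.0167). With every library kept, the adjusted p of Lpl was 0.0495 after rescaling by the median of ratios and 0.0424 with sample weights. Adipocytes are another rich source of this enzyme, and the 4 adipocyte markers examined summed to at most 0.208 CPM in the WT group and 0.0661 CPM in miR-21-/- samples, 2 of them under 3 reads in every library. The part of adipocytes or of any other cell type in the Lpl values was not tested.

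MYLIP, also called IDOL, is the ubiquitin ligase that sends the LDL receptor to degradation. Mylip (chr13:45389742-45412022, plus strand) was at 29.8, 39.9, 31.7 and 25.7 CPM in WT and at 31.0, 22.3, 30.0 and 24.6 CPM in miR-21-/- samples. Its groups overlap from 25.7 to 31.0 CPM. WT replicates 2 and 3 lay above all miR-21-/- values, and miR-21-/- replicates 2 and 4 below all WT values. Means were 31.8 ± 5.96 and 27.0 ± 4.19 CPM, with a log2 fold change of -0.22 (95% interval -0.53 to 0.08, adjusted p = 0.232 from limma). It was -0.11 without WT replicate 2 and -0.14 without miR-21-/- replicate 2, the libraries with the highest and lowest value of the 8.

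A pair of libraries was often at the end of its group. WT replicate 4 was the lowest WT sample for 6 of the 10 genes (Apoe, Apoc2, Abca1, Nr1h2, Mylip and Lpl) and the highest for Nr1h3 and Pltp. Replicate 1 of miR-21-/- was the highest of its genotype for 6 (Apoe, Apoc2, Abca1, Nr1h2, Mylip and Pltp) and the lowest for Nr1h3, Lpcat3 and Lpl. The count of members at an adjusted p at or under 0.05 went from 2 (without WT replicate 2, without miR-21-/- replicate 3, with no filter, without the trend or after quantile normalization) to 6 (with sample weights), and Apoe and Pltp were among them each time. Over all tested genes, 13.4% passed that limit with no filter, 26.4% without WT replicate 2 and 29.4% without miR-21-/- replicate 3. Their share was 34.1% without the trend, 30.0% after quantile normalization and 39.2% with sample weights, against 36.0% in the main fit.

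**Figure D4:**
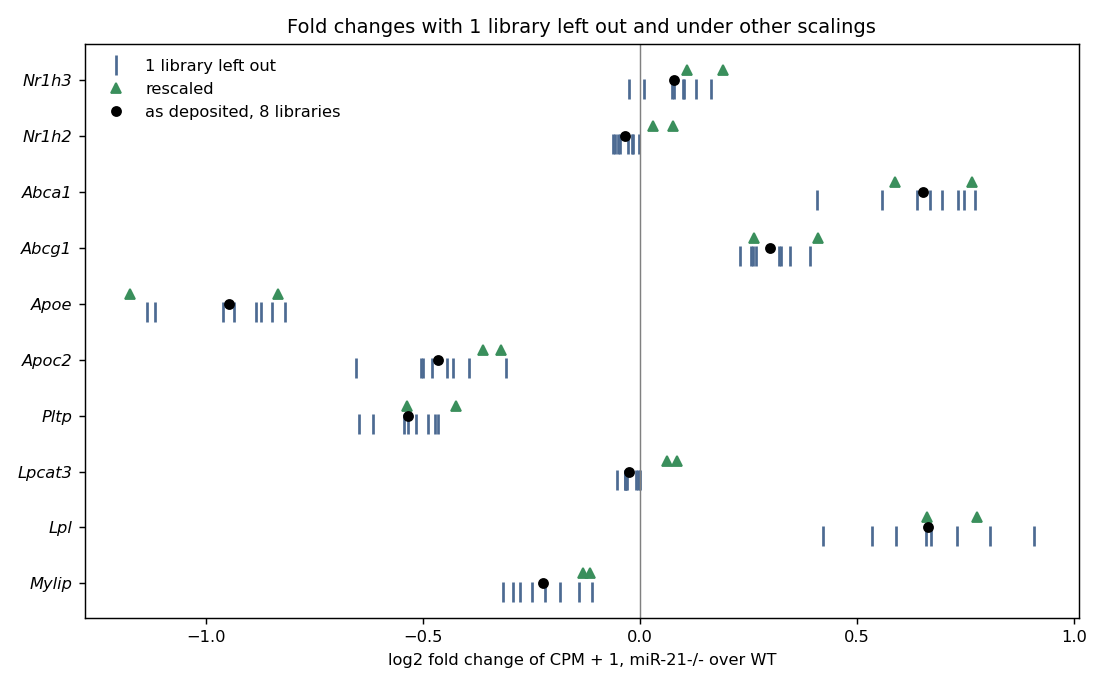
Log2 fold change of CPM + 1, miR-21-/- over WT (horizontal axis), of each gene in the fit of 8 libraries (dot), with each library left out in turn (blue ticks) and after 2 other scalings (green triangles). Apoe, Apoc2, Pltp and Mylip stay left of 0 and Abca1, Abcg1 and Lpl right of it, while Nr1h3, Nr1h2 and Lpcat3 lie on both sides or at 0.

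Per kilobase of the longest annotated coding transcript, the scale on which genes can be set beside each other, Apoe was the most abundant by far in both genotypes, at 1554 ± 413 CPM per kb in WT and 801 ± 215 CPM per kb in miR-21-/- TAMs. In WT, Pltp (83.7 ± 13.1) and Nr1h3 (52.7 ± 8.39 CPM per kb) came next, ahead of Abca1 (40.5 ± 11.8), Lpl (35.5 ± 9.31), Abcg1 (34.4 ± 3.02) and Nr1h2 (33.7 ± 2.09). From Nr1h3 to Nr1h2, the ranges of mean ± SD of neighbours in this order overlapped. Apoc2 (14.9 ± 1.13), Lpcat3 (14.1 ± 0.732) and Mylip (10.4 ± 1.94 CPM per kb) were the lowest. In miR-21-/- TAMs the order after Apoe was Abca1 (61.8 ± 10.1), Lpl (58.5 ± 24.0), Pltp (57.4 ± 7.55) and Nr1h3 (55.4 ± 6.08 CPM per kb), whose ranges of mean ± SD overlapped, then Abcg1 (42.6 ± 6.31) and Nr1h2 (32.8 ± 1.07), with Lpcat3 (13.9 ± 0.406), Apoc2 (10.9 ± 3.90) and Mylip (8.80 ± 1.37 CPM per kb) at the end. Pltp thus went from the second place to the fourth and Abca1 from the fourth to the second.

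Some marker genes of other cell types differed between the genotypes as well, and their summed levels are given for all lists. The 6 fibroblast markers summed to 48.6 to 121 CPM in the WT group and 8.14 to 42.3 CPM in miR-21-/- samples, and 3 of them (Col1a1, Col3a1 and Pdgfrb) were called lower. All 5 erythroid genes were called lower (summed 93.3 to 214 against 24.3 to 34.7 CPM). Neutrophil markers (5) summed to 471 to 853 CPM in the WT group and 357 to 502 CPM in miR-21-/- samples with none called. Dendritic cell markers (5) summed to 9.12 to 15.1 CPM and 11.3 to 36.2 CPM, endothelial markers (4) to 151 to 299 and 198 to 286 CPM, and epithelial markers (4) to 15.7 to 22.0 and 11.5 to 15.8 CPM. Sums for T cells (6 markers, 15.3 to 37.3 against 7.18 to 32.9 CPM, Cd4 called lower), B cells (4 markers, 10.8 to 16.8 against 3.60 to 9.99 CPM, Cd79b called lower) and NK cells (4 markers, 1.11 to 3.82 against 0.962 to 3.33 CPM) were small. Between the genotypes, the fibroblast sum and the mean of Apoe were both lower in miR-21-/- samples. Within the genotypes, the fibroblast sum was highest among WT samples in replicate 4, where Apoe was lowest. Among miR-21-/- samples it was highest in replicate 2 (42.3 CPM), while Apoe was highest in replicate 1. The part of such cells in the member values was not tested.

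Genes that act with the members were then read from 9 lists of the pathway, 81 genes of which 62 passed the filter. Of these, 8 passed both limits (12.9%, 3 higher and 5 lower), against 7.12% of all genes, and 32 had an adjusted p at or under 0.05 (51.6%, 9 higher and 23 lower), against 36.0% of all genes (9.49% higher and 26.5% lower). The split by direction moved with the scaling, to 15 higher and 14 lower after rescaling by the median of ratios and 13 higher and 19 lower after quantile normalization. Of all tested genes, 30.3% and 30.0% passed that limit under these rescalings. The median log2 fold change of the 62 was -0.12. These shares are a description of the lists, and no test was made of them.

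Lipid uptake held the largest difference. CD36, a scavenger receptor that takes up oxidized LDL and fatty acids, had Cd36 values of 36.1, 9.003, 27.1 and 15.6 CPM in WT and of 118, 150, 101 and 102 CPM in miR-21-/- samples. Every miR-21-/- library was well above the WT libraries, and the log2 fold change was 2.52 (standard error 0.341, adjusted p = 0.00054 from limma). Scarb1, which encodes the HDL receptor SR-BI, fell from 138 ± 21.4 to 76.8 ± 10.4 CPM (-0.83, adjusted p = 0.000722), and Sorl1, a sorting receptor that binds apolipoprotein E, fell from 352 ± 49.1 to 220 ± 18.6 CPM (-0.67, adjusted p = 0.000841). Of the 8 receptors tested 3 were called, and the median was 0.22. Sorl1 was under the limits after rescaling by the median of ratios and without WT replicate 2, and all 3 were under them with no filter.

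Enzymes that make or remove sterol ligands were called in both directions, 2 of 4 tested (median 0.08). Cyp27a1, which makes 27-hydroxycholesterol, fell from 37.2 ± 5.50 to 20.7 ± 1.09 CPM (log2 fold change -0.80, adjusted p = 0.000328 from limma). Hsd3b7, an enzyme of bile acid synthesis that also acts on oxysterols, rose from 40.5 ± 3.13 to 76.2 ± 7.17 CPM (0.89, adjusted p = 4.7e-05). Ch25h, which makes 25-hydroxycholesterol, had the highest fold change of the list, from 5.71, 2.28, 6.82 and 2.31 CPM in WT to 13.9, 25.9, 7.83 and 8.52 CPM in miR-21-/- samples. Its groups did not overlap, but the miR-21-/- samples spread widely, and with a log2 fold change of 1.47 (standard error 0.388) its adjusted p was 0.0152. Both called enzymes kept their calls in all 17 alternative settings.

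RXR partners and coregulators (11 tested, median -0.13) held 1 called gene. At an adjusted p at or under 0.05, 0 were higher and 5 lower. These counts were 2 higher and 1 lower after rescaling by the median of ratios, and 2 higher and 4 lower after quantile normalization. Rxrb fell from 42.5 ± 1.91 to 26.7 ± 2.20 CPM (log2 fold change -0.65, adjusted p = 0.000128 from limma), under the fold limit in both rescalings and with a pseudocount of 10. Ncoa1, a coactivator, had the highest fold change of this list at 0.15 (adjusted p = 0.0759).

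Other reported LXR targets, 8 tested, were not called, with 2 higher and 2 lower at an adjusted p at or under 0.05 (3 higher and 1 lower under either rescaling) and a median of -0.02. The highest was Cd5l, a secreted macrophage protein, at 0.75 (3.05 ± 0.705 and 6.24 ± 3.12 CPM, adjusted p = 0.0646 from limma), and the lowest Scd1, a fatty acid desaturase, at -0.68 (9.02 ± 1.12 and 5.57 ± 2.44 CPM, adjusted p = 0.0396). Scd1 was at or under 0.05 in 6 of the 17 alternative settings, with log2 fold changes of -0.90 to -0.30 and an adjusted p of 0.00474 to 0.123, and it passed both limits in 1 of them, without miR-21-/- replicate 1. The others at an adjusted p at or under 0.05 in the main fit were Fasn, lower at -0.54 (adjusted p = 0.000993, under the fold limit), and the higher Arl4c and Scd2. Arl4c was at 0.39 (adjusted p = 0.0292) and Scd2 at 0.29 (adjusted p = 0.0308). The groups did not overlap for Fasn and Arl4c. Apoc1, Apoc4, Abcg5 and Abcg8 of this list were below the filter, Abcg5 without a single read.

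Among 10 genes of cholesterol storage and movement inside the cell, Npc2, the lysosomal cholesterol carrier, rose from 438 ± 29.1 to 662 ± 64.4 CPM (log2 fold change 0.59, adjusted p = 0.000598 from limma). Its fold of 1.51 lies at the limit, and it was called in 10 of the 17 alternative settings. The lowest was Gramd1a, a carrier of cholesterol to the endoplasmic reticulum, at -0.45 (adjusted p = 0.000638), and the median was 0.09. At an adjusted p at or under 0.05, 3 genes of this list were higher and 2 lower. Plin2 rose from 352 ± 47.3 to 521 ± 38.4 CPM (0.57, adjusted p = 0.00204, under the fold limit). It was called with Npc2 after rescaling by the median of ratios (5 higher and 1 lower). After quantile normalization no gene of this list was called (3 higher and 2 lower).

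The list of other ABC transporters of the A and G families had mostly lower values in miR-21-/- TAMs, unlike Abca1 and Abcg1. Of the 5 tested, 4 were lower at an adjusted p at or under 0.05 (3 after rescaling by the median of ratios), with a median of -0.36. Abca9 fell from 115 ± 19.8 to 42.3 ± 4.63 CPM (log2 fold change -1.41, adjusted p = 3.6e-05 from limma), past both limits in all 17 alternative settings, while Abcg2 was the highest at 0.10 (adjusted p = 0.466). Not in the list were Abcg3 (-0.64, adjusted p = 0.000358 from limma), which passed both limits, and Abca13 (-0.77, adjusted p = 0.0122), both also lower.

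The other lysophospholipid acyltransferases, relatives of Lpcat3 in what they do, had lower values in all 5 genes tested, also under both rescalings. All 5 had an adjusted p at or under 0.05 (3 under either rescaling), and none passed both limits. The median was -0.44, from Lpcat4 at -0.49 (adjusted p = 0.00389 from limma) to Mboat7 at -0.20 (adjusted p = 0.0239).

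For lipoprotein lipase, the partners and inhibitors were not called in any of 4 genes tested (median -0.14). The lowest was Angptl4, an inhibitor of the enzyme, at -0.40 (5.87 ± 1.99 and 4.11 ± 0.881 CPM, adjusted p = 0.139 from limma). Gpihbp1, the anchor of the enzyme on capillary endothelium, was below the filter. Of 7 genes of PPARs, FXR and the SREBP2 pathway, none was called either (median -0.16). Srebf2, the master regulator of cholesterol synthesis, was the lowest at -0.39 (98.6 ± 7.70 and 75.2 ± 6.42 CPM, adjusted p = 0.00384, under the fold limit) and Ppargc1b the highest at 0.27 (adjusted p = 0.112).

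**Figure D5:**
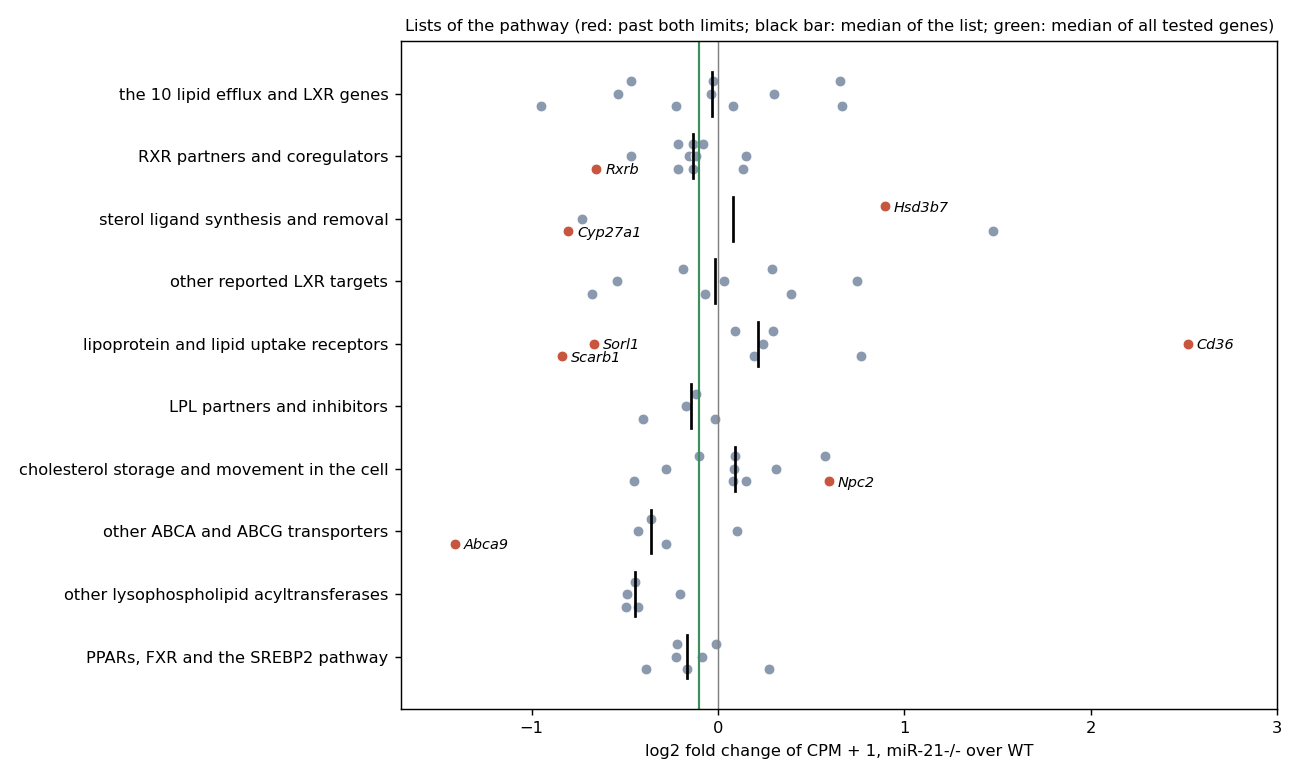
Log2 fold change of CPM + 1, miR-21-/- over WT (horizontal axis), of each tested gene of the 10 members and the 9 pathway lists (rows, with points spread vertically for legibility). Genes past both limits are red and named, black bars are list medians and the green line is the median of all tested genes (-0.10), and the list of other lysophospholipid acyltransferases lies wholly to the left, at -0.49 to -0.20.

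Below the filter were 19 genes of the lists, and 17 of them had a read in some library. Their CPM values were compared by an exact permutation test over samples, two-sided, for which 0.0286 is the smallest p that 4 against 4 allow. Sult2b1, an oxysterol sulfotransferase, was higher in miR-21-/- TAMs (0.0533 ± 0.0446 and 0.182 ± 0.0368 CPM, at most 7 reads) and Abca6 was lower (0.561 ± 0.416 and 0.0510 ± 0.0444 CPM), each with an exact p of 0.0286 and an adjusted p of 0.243 over the 17 genes.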

How the data were processed

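RNA of sorted TAMs was sequenced from 4 WT and 4 miR-21-/- samples with a poly(A) mRNA kit. The authors deposited 1 table of CPM values, with 0.0001 added to each value, and their processing notes name STAR, Partek 7.0 and mm10. The counting rule and strand are not given in the sources used here. Totals were 788094 to 807753 CPM and depth was 20.2 to 33.4 times 1e+06 reads per sample. As 73.1% to 74.0% of values of up to 20 reads were whole (within 0.02 read), whole reads were not recovered and no count test was run.

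The offset was taken off and log2(CPM + 1) was fitted with limma 3.58.1 (R 4.3.3, eBayes with a trend) for 13850 genes (those whose mean was 1 or more per 1e+06 of the column totals), and p-values were adjusted over all of them. On the log2 scale with a pseudocount of 1, the change of low genes is understated. On simulated data, 91.5% of 200 changed genes among 13850 were recovered and 1 unchanged gene was called. The planted log2 fold changes had a size of 1 or more, above that of every member, and lay outside the lowest genes. This share therefore does not measure how often changes as small as those of the members would be called.

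Named are the 10 members, in each list the genes past both limits and those with the highest and lowest fold change, and genes that overlap a member. Some others of the same lists or families are named where they passed a limit. Not every gene that this rule selects is reported here. The members and lists were chosen with earlier results of these data known, so that no list is independent evidence. Coordinates are those of the table (mm10, 1-based, with 1 taken off its end column): of 49628 symbols in GENCODE vM21, 97.1% had the same start and 96.91% the same end. Other settings were another pseudocount (0.1 or 10), filter (none or 5), scaling, trend, sample weights or limits, a replicate block, and each sample left out. Figures were drawn with matplotlib 3.10.9.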

Additional observations from a re-analysis of the deposited data

Results flagged for a closer look

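Lpcat3 in miR-21-/- replicate 1 was at 30.31 CPM, below the other 3 samples of its genotype, which lay between 31.98 and 32.29 CPM. The gap to the nearest of them is 0.846 of the group's range, above Dixon's 95% limit for 4 samples. Of 60 groups of 4 samples examined (30 genes), this was the only one past that limit, and chance gives about 1 in 20. The whole range of the group is small, and the same library was also the lowest of its genotype for Nr1h3 and Lpl.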

How the results depend on the processing

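The count over all genes, 986 as reported, was 452 with a pseudocount of 10, 515 with no filter, 1982 at an adjusted p at or under 0.005 with any fold change, 4982 at an adjusted p at or under 0.05 with any fold change (a limit added after the data were seen), and 684 (without WT replicate 2) to 1002 (without WT replicate 4) with 1 library left out. The share of higher genes among these calls was 40.6%, and 59.8% after rescaling by the median of ratios, 59.3% after quantile normalization, 55.5% with a pseudocount of 10 and 52.4% with no filter. None of the 10 members was called as reported. There was 1 each after quantile normalization (Apoe), with sample weights (Apoe) and with the replicate block (Abca1), 2 with a fold change over 1.5 and an adjusted p at or under 0.05 (as 1413 of all 13850 tested genes had), 4 at an adjusted p at or under 0.05 with any fold change, and 0 to 1 with 1 library left out. Of the pathway lists, 8 genes as reported, 5 were called with no filter, 12 with a fold change over 1.5 and an adjusted p at or under 0.05, 16 at an adjusted p at or under 0.005 with any fold change, 32 at 0.05 with any fold change, and 6 to 10 with 1 library left out. Of genes below the filter, 2 had an exact p at or under 0.05, and with 1 library left out 1 (without each of the miR-21-/- replicates) to 4 (without WT replicate 3). The sign turned for Nr1h2 (0.0761 with the median of ratios, 0.0306 with quantile normalization) and Lpcat3 (0.0846 and 0.0634). With 1 library left out, the log2 fold change of Lpcat3 was -0.0535 to 0.0000 and that of Nr1h3 -0.0247 to 0.1636. The other 7 members kept their direction in all 17 alternative settings. The causes were not tested.

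With the replicate number (as the sample descriptions give it) as a block, 922 genes were called (389 higher and 533 lower), and Abca1 had an adjusted p of 0.00454. Deviations of same-numbered samples correlated across genes at 0.083, -0.11, -0.14 and 0.22, the last being the highest of any WT sample with any miR-21-/- sample. Correlations over so few samples cannot exclude a shared batch. The labels give these samples only a number in common, and they were not taken as paired. The titles of the miR-21-/- samples carry other numbers, and by these, the pairs with a WT sample of the same number would be at 0.083, 0.14 and 0.032. By the other number in its title, miR-21-/- replicate 1 would also pair with WT replicate 2, at -0.0018. Precision is limited by 4 samples per genotype, and for genes under 1 CPM by the number of reads.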
